A study of Ovis aries with 20 samples.

Results

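The comparison is that of restricted with normal feeding in the ileum of pregnant ewes. It rests on the 10 ileal libraries among the 20 libraries of the series, chosen by their titles and the tissue and feeding labels, and not by any measured value. The ileal ewes fed a restricted diet gave 5 libraries and those fed normally gave 5. All were wild-type Hu sheep at day 115 of gestation, total RNA of the ileum was sequenced, and the labels give neither the amount of feed withheld nor its duration. The labels do not say that each library came from a separate ewe, so the p-values measure the spread between these libraries. The other 10 libraries hold the jejunum of ewes under the same 2 feeding regimes and are used only where the ileal differences are set beside jejunal ones.

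The ileum is the last part of the small intestine. Its enterocytes take up bile acids and vitamin B12, and its wall carries lymphoid follicles, the Peyer's patches. The lining is renewed continuously from crypts, which makes it a tissue of high energy demand, and the gut of ruminants is known to shrink when feed is short. A sample of whole ileum mixes epithelium, immune cells, stroma and smooth muscle, so that in these bulk libraries fewer cells of a type and less RNA per cell cannot be told apart.

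Levels are the authors' FPKM, fragment counts scaled by transcript length and library size, which allow levels to be compared between genes. Each ileal table lists 18051 gene IDs, each the word gene and a number. The files do not pair the IDs with names, and the RefSeq table of sheep genes held 0 of the IDs. Genes are therefore described by level, direction and rank, 2 IDs higher and 2 lower under restriction are printed, and marker genes of the ileum or of its cell types could not be looked up. As a check of the tissue label that needs no names, 44 genes at least 4-fold higher in ileum than in jejunum over all 20 libraries were followed (limma, adjusted p under 0.05). They had a median of 28.7 to 53.2 FPKM in restricted ileal libraries 1, 3, 4 and 5 and of 16.0 to 52.4 FPKM in the 5 normally fed ones. Restricted ileal library 2 stood apart at 5.78 FPKM. That is below the other ileal libraries and above the jejunal ones at 0.862 to 2.52 FPKM, but below restricted jejunal library 2 at 6.98 FPKM. On 41 genes at least 4-fold higher in jejunum, restricted ileal library 2 stood at 3.71 FPKM, within the ileal range of 0.0906 to 11.4 FPKM. The 44 genes were picked on these libraries, so their level shows where each library lies and is no test.

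On average, restricted libraries held fewer genes at 1 FPKM or more than normally fed ones, and they were sequenced more deeply. At 1 FPKM or more, restricted libraries 1 to 5 held 12577, 12459, 12713, 12527 and 12769 genes, against 12650, 12944, 12716, 12836 and 12965 genes in normally fed libraries 1 to 5. The groups overlapped, and the means of 12609 ± 129 and 12822 ± 138 genes (SD, n = 5 each) differed with an exact two-sided permutation p of 0.0397, or 0.0992 when adjusted over 5 library measures. The unadjusted p rose to between 0.0714 and 0.0873 without restricted library 1, 2 or 4 or normally fed library 2, 4 or 5 (exact permutation tests). At 10 FPKM or more the means were 6495 ± 103 genes under restriction and 6625 ± 102 genes under normal feeding (exact permutation test, p = 0.0873). Genes at 100 FPKM or more averaged 657 ± 34.6 under restriction and 635 ± 22.2 under normal feeding (exact permutation test, p = 0.278), and the 100 most abundant genes took 32.9% ± 4.13 and 31.7% ± 1.88 of all FPKM (exact permutation test, p = 0.651). Read totals are not in the files, but the lowest FPKM values lie on steps of whole fragments, which gives each library's depth relative to the others. With normally fed library 1 set to 1, restricted libraries 1 to 5 stood at 1.15, 1.04, 1.06, 1.05 and 1.11, and normally fed libraries 1 to 5 at 1, 1.02, 1.02, 0.970 and 0.959. All restricted libraries were deeper than all normally fed ones (exact permutation test, p = 0.00794, the smallest this design allows, adjusted p = 0.0397). The part of depth in the differences below was not tested.

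The test of feeding covered the 12830 genes at 1 FPKM or more in at least 5 of the 10 libraries, on log2(FPKM + 1) with limma. At a Benjamini-Hochberg adjusted p under 0.05, 2 genes passed, or 0.0156% of those tested. The gene gene17412 rose and gene20115 fell, each 0.00779% of the genes tested, and gene17412 met the filter only through its restricted libraries. The next 2 genes by p, gene7198 and gene7772, stood just past the threshold and had groups that did not overlap. The count of 2 was 0 without restricted library 1 or 4 or without any 1 of the 5 normally fed libraries. It was 1 without restricted library 2, 6 without restricted library 3 and 8 without restricted library 5. The gene that passed without restricted library 2 was not among the printed IDs. In a single fit of all 20 libraries 73 genes passed, 17 of them higher and 56 lower. With a filter on the mean of all 10 libraries, chosen after seeing the data, only gene20115 passed.

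The gene that rose, gene17412, was barely transcribed under normal feeding. It stood at 3.51, 3.93, 2.12, 3.65 and 2.77 FPKM in restricted libraries 1 to 5, against 0.893, 0.695, 0.915, 0.938 and 0.480 FPKM in normally fed libraries 1 to 5. Restricted library 3, the lowest of its group, still lay well above all normally fed libraries. The log2 fold change was 1.22 ± 0.150 (± SE, with an adjusted p of 0.0446 by limma). Because all normally fed libraries lay below 1 FPKM, this gene met the filter only through its restricted libraries, as did 1 other gene. With a filter on the mean of all 10 libraries, chosen after seeing the data, its adjusted p was 0.0535 (limma).

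The gene that fell, gene20115, was low in both groups and tightly grouped. It stood at 1.84, 1.79, 1.96, 2.30 and 2.78 FPKM in restricted libraries, against 6.37, 5.32, 6.33, 4.93 and 7.51 FPKM in normally fed ones. The groups were well apart, with a log2 fold change of -1.18 ± 0.133 (± SE, with an adjusted p of 0.0417 by limma). With a library left out, the log2 fold change changed little, from 1.16 to 1.32 for gene17412 and from -1.25 to -1.11 for gene20115. The adjusted p ran from 0.0102 to 0.201 for gene17412 and from 0.0238 to 0.166 for gene20115 (limma), and both genes passed only without restricted library 3 or 5.

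Larger in size, but less even between libraries, was gene7772. It stood at 38.3, 52.5, 122, 97.3 and 34.2 FPKM in restricted libraries 1 to 5, against 12.7, 12.3, 9.75, 8.37 and 10.2 FPKM in normally fed ones. The restricted libraries were widely spread, with libraries 3 and 4 highest, and the normally fed ones lay close together. Its log2 fold change of 2.42 ± 0.331 did not pass (± SE, with an adjusted p of 0.0599 by limma).

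The other near miss, gene7198, was of moderate abundance. It stood at 20.04, 12.5, 16.0, 17.5 and 16.1 FPKM in restricted libraries, against 32.5, 32.2, 28.3, 33.5 and 35.7 FPKM in normally fed ones. The means of 16.4 ± 2.73 and 32.4 ± 2.69 FPKM (SD, n = 5 each) gave a log2 fold change of -0.95 ± 0.125 (± SE, with an adjusted p of 0.057 by limma).

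**Figure D1:**
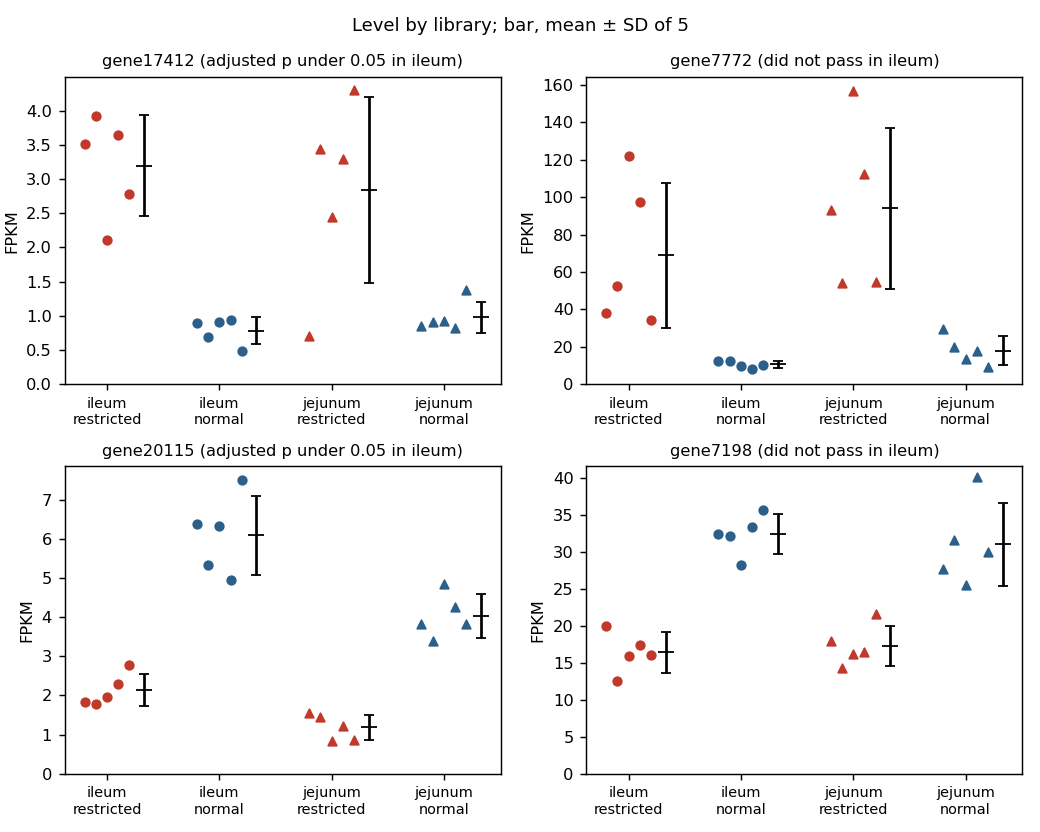
FPKM (linear axis from 0) of the 4 printed genes in each library, restricted left of normal feeding, in ileum (circles) and jejunum (triangles), with mean ± SD of 5 beside the points. In the ileum no restricted library overlaps a normally fed one. This was a condition for printing gene7772 and gene7198, and the filter fixed it for gene17412. In the jejunum restricted library 1 of gene17412 lies at 0.711 FPKM, below all 5 normally fed ones.

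The same 4 genes were measured in the jejunum, and 3 of them passed there, where 0.545% of 12652 genes did. The level of gene7772 was 94.1 ± 43.0 FPKM under restriction and 18.0 ± 7.75 FPKM under normal feeding (SD, n = 5 each), with a jejunal log2 fold change of 2.30 ± 0.353 (± SE, with an adjusted p of 0.020 by limma). The level of gene7198 was 17.3 ± 2.71 FPKM under restriction and 31.0 ± 5.62 FPKM under normal feeding, with a jejunal log2 fold change of -0.80 ± 0.138 (± SE, with an adjusted p of 0.0306 by limma). For gene20115 the jejunal log2 fold change was -1.21 ± 0.129 (± SE, with an adjusted p of 0.00606 by limma), next to -1.18 in the ileum. For gene17412 it was 0.86 ± 0.267 (± SE, with an adjusted p of 0.287 by limma). The differences between the ileal and the jejunal change were 0.36 ± 0.315, 0.11 ± 0.511, 0.03 ± 0.180 and -0.15 ± 0.186 on the log2 scale for gene17412, gene7772, gene20115 and gene7198 (SE, interaction in limma over 20 libraries, adjusted p = 1.00 for each). A p of this size does not show that the changes were equal.

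Beyond the 2 genes that passed, differences below the adjusted threshold leaned towards lower levels under restriction. At an unadjusted p under 0.05, 281 genes (2.19%) were higher and 884 (6.89%) were lower in restricted ileum, together 9.08% of those tested. With 1 library left out the total ran from 831 to 1373. It was highest without restricted library 2, with 405 higher and 968 lower genes. Of the 1165 genes found with all 10 libraries, 75.9% were lower. Genes vary together across libraries, so without any difference between the groups the count can spread widely around its expected value. That expected value is 641.5 genes at this cutoff over both directions. Split evenly between directions, that is more than the 281 higher genes found with all 10 libraries on the deposited scale. With libraries rescaled to equal summed FPKM, 1267 genes had such a p and 83.9% of them were lower, and after quantile normalization 1150 had such a p and 60% were lower. The direction of the majority held under these scalings and its size did not. The 884 genes were of low to moderate abundance, with a median of 5.63 FPKM under restriction and 8.49 FPKM under normal feeding, and a median log2 fold change of -0.52. The 281 genes had a median of 12.9 FPKM under restriction and 8.004 FPKM under normal feeding, and a median log2 fold change of 0.45. The median log2 fold change of all 12830 genes was -0.03, and 55.7% of them were lower. After quantile normalization it was 0.01, with 48.0% lower.

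The share of lower genes was largest among weakly transcribed genes, but at an unadjusted p under 0.05 lower genes outnumbered higher ones in every class of level on the deposited scale. Of the 1134 genes with a mean under 2 FPKM, 9.88% were lower and 2.38% higher at an unadjusted p under 0.05. From 2 to 5 FPKM the shares were 9.72% lower and 2.16% higher, from 5 to 10 FPKM 7.53% and 2.18%, and from 10 to 50 FPKM 5.36% and 2.16%. Among 786 genes from 50 to 100 FPKM they were 4.07% lower and 2.67% higher, and among 592 genes from 100 to 1000 FPKM 5.24% lower and 1.86% higher. The share of higher genes differed little between these classes. Quantile normalization turned this round below 2 FPKM, where 6.17% of genes were then higher and 4.76% lower, and from 2 to 5 FPKM it gave 5.37% higher and 6.56% lower. From 100 to 1000 FPKM it gave 1.86% higher and 6.59% lower. With equal summed FPKM the shares below 2 FPKM were 1.59% higher and 11.1% lower. Without restricted library 2 they were 3.09% higher and 10.4% lower.

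**Figure D2:**
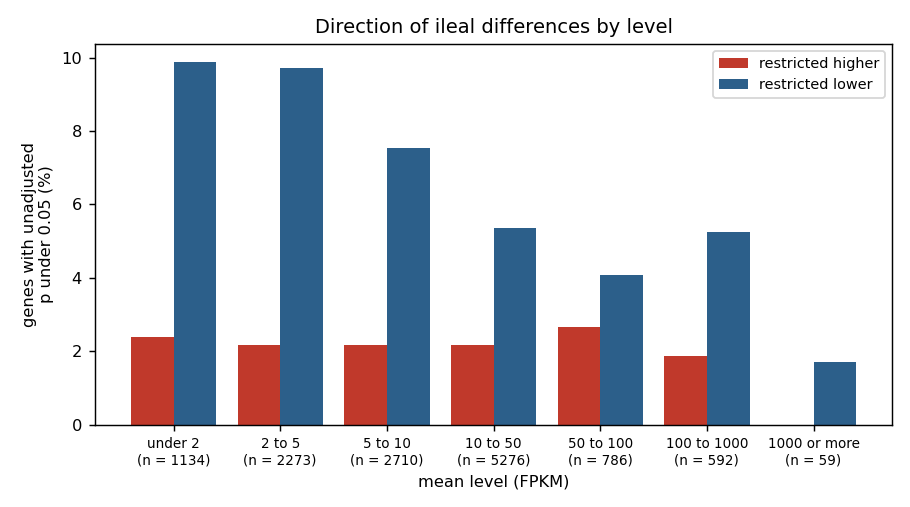
Percent of genes with an unadjusted p under 0.05 (limma), higher (red) or lower (blue) in restricted ileum, by mean level in FPKM. The bars show the deposited scale, where the share of lower genes is 9.88% under 2 FPKM, 4.07% from 50 to 100 FPKM and 5.24% from 100 to 1000 FPKM. After quantile normalization, which is not drawn, the group under 2 FPKM has more higher (6.17%) than lower genes (4.76%).

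A description free of the variance model was sought in the genes whose 5 restricted libraries all lay on the same side of the 5 normally fed ones. Such genes numbered 306, or 2.39% of those tested. Of them 64 were higher (0.499%) and 242 lower (1.89%) under restriction, so that 79.1% were lower. Without any difference between the groups, a gene separates fully in either direction with a probability of 0.00794, the smallest exact permutation p of this design. Split evenly between directions, this is close to the 0.499% of higher genes and well below the 1.89% of lower genes. Because genes vary together, the counts can again spread widely around their expected values. With equal summed FPKM 350 genes had no overlap and 87.7% of them were lower, and after quantile normalization 294 had none and 63.6% were lower. Fewer libraries make overlap less likely, and without restricted library 2, 3 or 5 or normally fed library 4 such genes numbered 476, 494, 599 and 499. The filter fixed this outcome for 2 of the higher and 6 of the lower genes, which reached 1 FPKM in the libraries of 1 group alone, and 62 and 236 genes remain without them. The log2 fold changes ran from 0.16 to 3.10 in the higher genes, with 11 at least 2-fold higher, and from -2.30 to -0.19 in the lower genes, with 26 at least 2-fold lower. Higher genes had a median of 19.2 FPKM under restriction and 9.86 FPKM under normal feeding, and lower genes 6.24 and 10.1 FPKM.

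**Figure D3:**
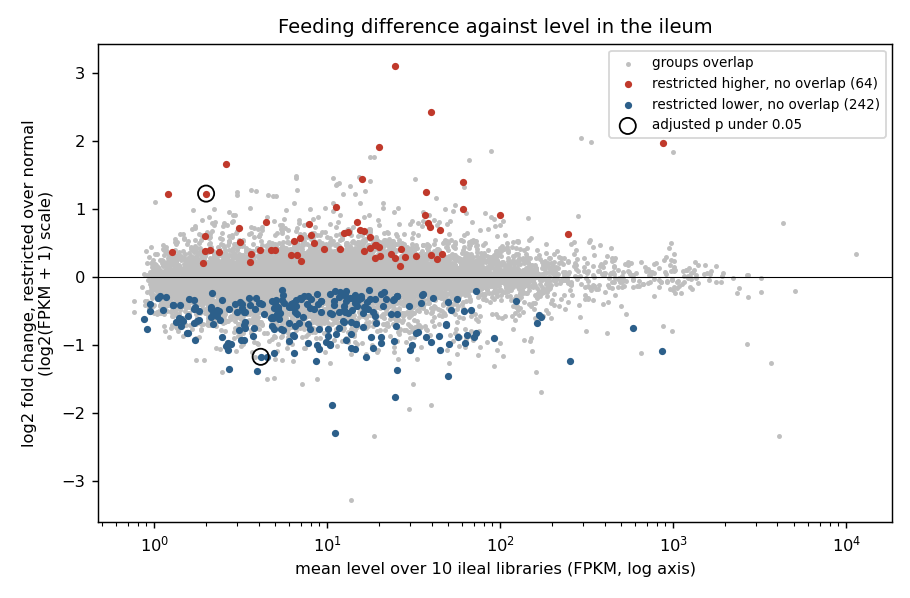
Log2 fold change of restricted over normal feeding (log2(FPKM + 1) scale) against the mean level of each of the 12830 tested genes (log axis). Coloured points are the 64 higher (red) and 242 lower (blue) genes whose groups do not overlap. Circles mark gene17412 and gene20115, which passed, and gene17412 met the filter only through its restricted libraries.

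Among these genes the largest difference upward belonged to a gene at 26.9, 44.3, 75.8, 72.7 and 7.92 FPKM in restricted libraries 1 to 5, against 2.76, 2.18, 2.96, 5.69 and 3.36 FPKM in normally fed ones. Restricted library 5 lay far nearer to the normally fed libraries than the other 4, and the log2 fold change of 3.10 ± 0.526 did not pass (± SE, with an adjusted p of 0.132 by limma). In the jejunum the same gene rose, with a log2 fold change of 4.08 ± 0.623 (± SE, with an adjusted p of 0.0198 by limma). The largest difference downward belonged to a gene at 5.22, 2.27, 1.32, 0.830 and 9.33 FPKM in restricted libraries, against 18.7, 15.8, 16.5, 19.1 and 21.0 FPKM in normally fed ones. Here too restricted library 5 was the nearest to normal feeding and library 4 the farthest. Its log2 fold change was -2.30 ± 0.412 (± SE, with an adjusted p of 0.138 by limma).

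Abundant genes were among the 306 as well. Of the 651 genes at a mean of 100 FPKM or more, 2 (0.307%) were higher and 7 (1.075%) lower without overlap, next to 0.499% and 1.89% of all genes tested. The most abundant of the higher ones stood at 1127, 1933, 968, 1053 and 1395 FPKM in restricted libraries, against 901, 537, 647, 98.0 and 112 FPKM in normally fed ones. The gap between the groups was narrow, at 968 against 901 FPKM, and normally fed libraries 4 and 5 were lowest. Its log2 fold change was 1.96 ± 0.611 (± SE, with an adjusted p of 0.318 by limma). The most abundant of the lower ones stood at 585, 389, 631, 373 and 841 FPKM in restricted libraries, against 1036, 1350, 1099, 899 and 1438 FPKM in normally fed ones. Its mean of 564 ± 193 FPKM under restriction was close to 2-fold below that of 1164 ± 224 FPKM under normal feeding (SD, n = 5 each), with a log2 fold change of -1.09 ± 0.247 (± SE, with an adjusted p of 0.21 by limma). The third of the lower genes by abundance averaged 157 ± 64.0 FPKM under restriction and 349 ± 72.7 FPKM under normal feeding.

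The size of the shift differed between the restricted libraries. Over the 242 lower genes, the median deviation from the mean of normal feeding was -0.45, -0.59, -0.54, -0.69 and -0.36 on the log2 scale in restricted libraries 1 to 5. Over the 64 higher genes it was 0.39, 0.53, 0.49, 0.56 and 0.44. Library 4 lay farthest from normal feeding in both lists, and library 5 was the nearest in the lower list and library 1 in the higher. The lists were chosen on these libraries, so these values describe them and test nothing.

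The ileal genes without overlap were then followed in the jejunum, whose libraries did not enter their choice. Of the 227 lower genes that could be tested in the jejunum, 207 (91.2%) were lower there, as were 52.2% of all 12471 genes tested in both segments. Their median jejunal log2 fold change was -0.32, against -0.01 over all genes. Of the 63 higher genes 56 (88.9%) were higher there, as were 47.8% of all genes, with a median of 0.24. Jejunal groups did not overlap in the same direction for 61 of the lower and 9 of the higher genes. That is 25.2% of the ileal and 25.3% of the jejunal list of lower genes without overlap, and 14.1% and 9.78% of the lists of higher genes, where 1.94% and 0.727% of all jejunal genes tested were lower or higher without overlap. In the jejunum 32 of the lower and 6 of the higher ileal genes passed, against 0.458% and 0.0869% of all jejunal genes.

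The deviations were seen in each restricted jejunal library. Over the 227 lower genes the median deviation from normally fed jejunum was -0.27, -0.38, -0.47, -0.38 and -0.21 in restricted jejunal libraries 1 to 5, and between -0.13 and 0.11 in the normally fed ones. Over the 63 higher genes it was 0.20, 0.35, 0.38, 0.21 and 0.21 in restricted libraries, and between -0.03 and 0.03 in normally fed ones. The restricted jejunal libraries did not overlap the normally fed ones in either list. Equal numbers may mark the same ewe in both segments, so the jejunal values may not be independent of the ileal ones. With deviations from group means taken over 13279 genes, ileal and jejunal restricted libraries of equal number correlated at 0.168 to 0.637 and normally fed ones at 0.0219 to 0.4997, as a description across genes. Ileal and jejunal libraries of unequal number were not compared, so these values do not show whether equal numbers mark the same ewe.

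**Figure D4:**
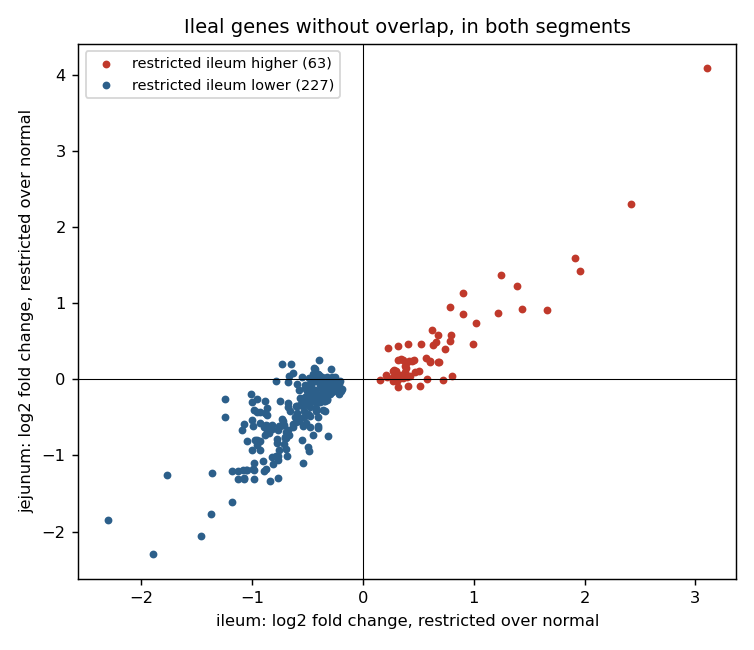
Log2 fold change of restricted over normal feeding in ileum (horizontal) and jejunum (vertical) for the 63 higher (red) and 227 lower (blue) ileal genes without overlap that were tested in both. The ileal direction was used to choose the genes. In the jejunum 56 of the 63 lie above 0 and 207 of the 227 lie below it.

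A difference of the feeding effect between the segments was not found for any gene: 0 of 13279 genes passed the interaction (limma, smallest adjusted p = 1.00), and 262 had an unadjusted p under 0.05 (1.97%). Among the ileal genes without overlap, 38 of the 242 lower and 9 of the 64 higher ones had an unadjusted interaction p under 0.05. They were chosen for a large ileal difference, which favours such values. These p-values come from a fit that took ileal and jejunal libraries of equal number as independent. If equal numbers mark the same ewe, they may be too large. With a block for equal numbers within each feeding group, 0 genes passed and the smallest adjusted p was 0.378 (limma).

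Restricted ileal libraries were less alike than normally fed ones. The median SD over genes of log2(FPKM + 1) was 0.303 among restricted and 0.229 among normally fed libraries, and 73.3% of genes varied more under restriction. Without restricted library 2 the restricted median was 0.264, and 60.5% of genes varied more. Pairs of restricted libraries correlated across genes at a median of 0.927 (10 pairs, 0.840 to 0.963), and pairs of normally fed libraries at a median of 0.949 (10 pairs, 0.924 to 0.977). Pairs of restricted libraries other than library 2 had a median of 0.940. Restricted library 2 was the highest or lowest of the 10 libraries in 42.1% of genes, libraries 3 and 4 of restriction in 30.8% and 31.0%, and each of the other 7 in 10.1% to 21.0%.

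On the main axes of variation the feeding groups overlapped. Component 1 of a principal component analysis, with 43.4% of the variance, ran from restricted library 2 at -62.94 to restricted library 3 at 41.79, with normally fed libraries between -26.90 and 33.67. Component 2, with 20.3%, ran from restricted library 4 at -46.59 to normally fed library 5 at 29.93. Restricted libraries 2 and 4 stood alone at the low ends.

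**Figure D5:**
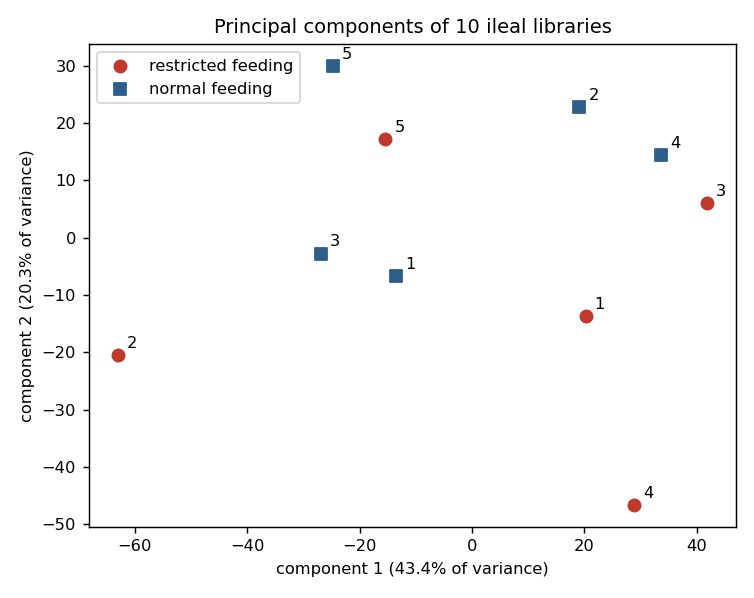
The 10 ileal libraries on the first 2 principal components of log2(FPKM + 1) over 12830 genes, labelled by replicate number (red circles, restricted; blue squares, normal feeding). Restricted library 2 lies alone at -62.94 on component 1 and restricted library 4 at -46.59 on component 2, and the groups overlap.

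The most abundant transcripts were also spread between libraries. Of the 59 genes at a mean of 1000 FPKM or more, 29 were lower and 30 higher under restriction by their means, 1 (1.69%) had an unadjusted limma p under 0.05, against 9.08% of all genes, and 0 had groups without overlap, against 2.39% of all genes. In 59 genes a share of 0 is close to that background. They held 21.5% to 28.8% of all FPKM in restricted and 21.2% to 25.1% in normally fed libraries. The most abundant gene stood at 13075, 7963, 15277, 10450.3 and 17706 FPKM in restricted libraries, against 8542, 10746, 8399, 12812 and 9283 FPKM in normally fed ones. Its groups overlapped, with a log2 fold change of 0.34 ± 0.290 (± SE, with an adjusted p of 0.863 by limma).

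Some abundant genes ranged widely within a group. The third by abundance stood at 12706, 311, 2899, 16764 and 80.4 FPKM in restricted libraries, against 4999.8, 769, 2706, 1928 and 50.3 FPKM in normally fed ones. The fourth stood at 7937, 2.78, 3946, 799 and 3062 FPKM in restricted libraries, against 1712, 7044, 1734, 9426 and 4979 FPKM in normally fed ones. It was nearly silent in restricted library 2 alone, where the fifth most abundant gene reached its highest level. That gene stood at 11771 FPKM in restricted library 2 and at 12.3 FPKM in restricted library 3, with 967 to 5408 FPKM in the normally fed libraries. Of the 651 genes at 100 FPKM or more, 51 spanned more than 10-fold between the lowest and the highest ileal library, and restricted library 2 was at an end of the range in 36 of them.

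The genes that set ileum and jejunum apart were also compared between feeding regimes. Of the 44 genes higher in ileum, 3 (6.82%) were lower and 0 higher at an unadjusted p under 0.05, next to 6.89% and 2.19% of all genes tested. Groups without overlap were found for 0 of the 44, where 2.39% of all genes had them, which is too few genes to tell these shares apart. By their means 28 were lower, with a median log2 fold change of -0.08. Of 41 genes at least 4-fold higher in jejunum, 25 were detected widely enough in the ileum to be tested, and 0 of these had an unadjusted p under 0.05 or groups without overlap. By their means 6 of the 25 were lower, where 55.7% of all genes tested were, and their median log2 fold change was 0.37. The level of all 41 had a median of 0.0906 to 11.4 FPKM in restricted and 0.337 to 4.40 FPKM in normally fed ileal libraries, and restricted library 4 was the highest at 11.4 FPKM. Restricted ileal library 2 stood at 3.71 FPKM, next to 3.83 FPKM in restricted jejunal library 2, while the other jejunal libraries stood at 21.4 to 45.2 FPKM. Both libraries numbered 2 under restriction thus lay close to each other on either list of segment genes.

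Transcripts switched fully on or off were not seen at an appreciable level. Of the 18051 listed genes, 427 were listed at 0 in all normally fed libraries, and 2 of these were above 0 in all restricted ones, at 0.713 FPKM at most. A further 342 were listed at 0 in all restricted libraries, and 1 of these was above 0 in all normally fed ones, at 0.111 FPKM at most. By their log2 means 51 genes were at least 2-fold higher and 80 at least 2-fold lower under restriction. Of these 11 (21.6%) and 26 (32.5%) had groups without overlap, against 2.39% of all genes tested, and size and overlap come from the same values. The largest mean difference of all, a log2 fold change of -3.28 ± 0.753 (± SE, with an adjusted p of 0.215 by limma), belonged to a gene at 0.27, 0.0273, 0.0535, 3.05 and 3.44 FPKM in restricted libraries, against 41.5, 31.7, 6.84, 47.7 and 3.09 FPKM in normally fed ones. Normally fed library 5 lay below restricted library 5, so that its groups overlapped.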

How the data were processed

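RNA was extracted with Trizol and sequenced from NEBNext Ultra libraries, per the labels' protocols. The authors deposited 1 table per library of gene IDs and FPKM, per the file headers. No aligner, counting tool, genome build or annotation is named, being not given in the sources used here. FPKM are not counts, so limma 3.58.1 with a mean-variance trend (R 4.3.3) was run on log2(FPKM + 1) over genes at 1 FPKM or more in at least 5 libraries, with Benjamini-Hochberg adjustment over all of them and a threshold of 0.05. This scale understates changes of low genes. The interaction used all 20 libraries and genes listed in both segments. Library measures were compared by exact two-sided permutation over 252 labellings. Relative depth came from ratios of values below 0.08 FPKM. The number of reads is unknown, so no counting error was computed. Printed IDs are, per direction, genes that passed, filled up to 2 with the lowest p among genes without overlap. Marker lists could not be applied for want of names. Segment genes, level classes and ranked genes were chosen after seeing the values. Members and lists were chosen with earlier results of these data known. The tests were checked on simulated data. Alternatives covered the pseudocount, filter, scaling, spread model, replicate block and each library left out. Restricted and normally fed ileal libraries share replicate numbers and nothing else in the labels.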

Additional observations from a re-analysis of the deposited data

Results flagged for a closer look

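Among the 26 groups of 5 libraries examined, 1 held a library far from the other 4. This was gene17412 in the normally fed jejunum, where library 5 stood at 1.38 FPKM and the others at 0.821 to 0.925 FPKM, so that the gap took 0.815 of the range (critical value 0.71). Chance gives a gap past the critical value in about 1 in 20 groups.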

How the results depend on the processing

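The count of ileal genes that passed, 2 in limma, stayed at 2 with a pseudocount of 0.5, equal summed FPKM, quantile normalization or no mean-variance trend. It was 1 with a pseudocount of 0.1, 1 with a filter on the mean at 1 FPKM, 0 with no filter, 0 with a filter at 5 FPKM, 8 with library weights, 73 in a fit of all 20 libraries, and 0 to 8 with 1 library left out. Neither of the 2 genes reached the filter at 5 FPKM, so neither could be fitted there. With the replicate number as a block 0 passed, and both genes had an adjusted p of 0.166 (limma). For restricted and normally fed ileal libraries of equal number, the correlations of their deviations ran from -0.594 to 0.423. Ileal libraries of unequal number were not compared in this way, so these values do not show whether the numbers act as pairs. The block also left 0 genes in the interaction, as did the other 23 alternatives. Genes without overlap numbered 353 to 599 with 1 library left out, by construction, and stayed within 1.5 times of 306 otherwise. The deficit in genes at 1 FPKM or more was -213.2 genes, -245.4 with equal summed FPKM (exact permutation test, p = 0.0794) and -256.2 to -175.7 with 1 library left out. Over all alternatives run, no direction of the 4 printed genes was reversed. Their adjusted p in limma ran from 0.0102 to 0.201 for gene17412, from 3e-04 to 0.166 for gene20115, from 0.00626 to 0.268 for gene7772 and from 0.00353 to 0.264 for gene7198. The causes of these changes were not tested. Read depth is unknown beyond its ratio between libraries, and its part in the lower values of weakly transcribed genes was not tested.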
